A study of Mus musculus with 8 samples.

Results

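Chemokines and their receptors were followed in MCa-P1362, a mouse mammary adenocarcinoma line raised from a spontaneous tumour of a Balb/c female. The genes were taken by name alone: every gene name in the files with the stem Ccl, Cxcl, Cx3cl or Xcl and a number for ligands, and Ccr, Cxcr, Cx3cr, Xcr or Ackr and a number for receptors. This gave 61 of the 24421 gene names, 39 ligands and 22 receptors. RNA sequencing of total RNA covered 8 libraries in 4 groups of 2: monoculture EpCAM+, monoculture EpCAM-, coculture EpCAM+ and coculture EpCAM- cells. All come from the 1 cell line, grown in high glucose medium with serum and sorted by flow cytometry on EpCAM, a surface adhesion protein of epithelial cells, with no treatment or engineered allele named. Sorted cells were frozen at once or after growth and a passage, and the labels do not say which of these coculture and monoculture stand for. Nor do they say whether the libraries of a group are separate cultures, and the p-values therefore rest on a spread between libraries that may be purely technical.

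Chemokines are small secreted proteins that guide moving cells, and they bind receptors coupled to inhibitory G proteins. CXC ligands with the residues ELR before the paired cysteines draw neutrophils, the interferon-induced CXCR3 ligands draw T cells, and many CC ligands draw monocytes. Atypical receptors bind chemokines without G protein signalling and take them up from the surroundings. In mammary tumours, Cxcl12 from stromal fibroblasts and Ccl2 from tumour and stroma are known examples.

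Levels are in FPKM, which divides fragments by gene length and library depth, so they can be compared between genes per length. Values summed to between 387489 and 414612 FPKM per library, and the low values gave depths between 0.911 and 1.16 relative to monoculture EpCAM+ replicate 1; the depth in reads is unknown. The sort matched its marker genes: 12 epithelial markers summed to 10001 to 10108 FPKM in monoculture EpCAM+, 19.8 to 21.1 in monoculture EpCAM-, 10878 to 10985 in coculture EpCAM+ and 35.0 to 35.5 in coculture EpCAM-. Each fraction also held a share of the other's markers. In coculture EpCAM+ libraries 12 mesenchymal markers stood at a median of 1.72% and 1.70% of their EpCAM- level (range over markers 1.51% to 1.97%). In monoculture EpCAM+ the medians were 0.121% and 0.137% (range 0.0814% to 0.472%). Epithelial markers in EpCAM- libraries stood at medians of 0.170% to 0.266% of the EpCAM+ level. The part of these shares in the results was examined only by subtraction. That step cannot tell RNA of the other fraction's cells from RNA made by the sorted cells. Of 19 leukocyte markers in the files, none reached a mean of 1 FPKM in any group but Lyz2 (3.06 FPKM in monoculture EpCAM-). The pan-leukocyte gene Ptprc was at 0 in both libraries of all groups except coculture EpCAM+, and Cd3e was at 0 in all groups. Of 8 endothelial markers, Kdr alone reached 1 FPKM, in coculture EpCAM-.

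Most of the family was at or near 0. Of the 61 genes, 21 were listed at 0 in all 8 libraries. These were the 13 ligands Ccl1, Ccl3, Ccl4, Ccl12, Ccl19, Ccl21a, Ccl21b, Ccl21c, Ccl22, Ccl24, Ccl26, Ccl27b and Xcl1, and 8 receptors, among them Ackr1, Ccr1, Cxcr1 and Cxcr2. None of 12 housekeeping genes, a list added after the data were seen, was at 0 in any library. Their lowest value was 10.1 FPKM, so they cannot show whether genes of low level would be detected. Another 24 members were above 0 somewhere but below a mean of 1 FPKM in every group. Of these, the 12 ligands were Ccl6, Ccl11, Ccl17, Ccl27a, Ccl28, Cxcl2, Cxcl3, Cxcl9, Cxcl11, Cxcl13, Cxcl14 and Cxcl15, and the 12 receptors Ackr2, Ccr2, Ccr4, Ccr7, Ccr9, Ccr10, Cx3cr1, Cxcr3, Cxcr4, Cxcr5, Cxcr6 and Xcr1. The remaining 16, with 14 ligands and 2 receptors, reached a mean of 1 FPKM in at least 1 group, and these same 16 passed the filter for testing (1 FPKM in at least 2 libraries). That filter lets a gene through on the group where it is high, so counts over the 16 do not stand for the family.

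**Figure D1:**
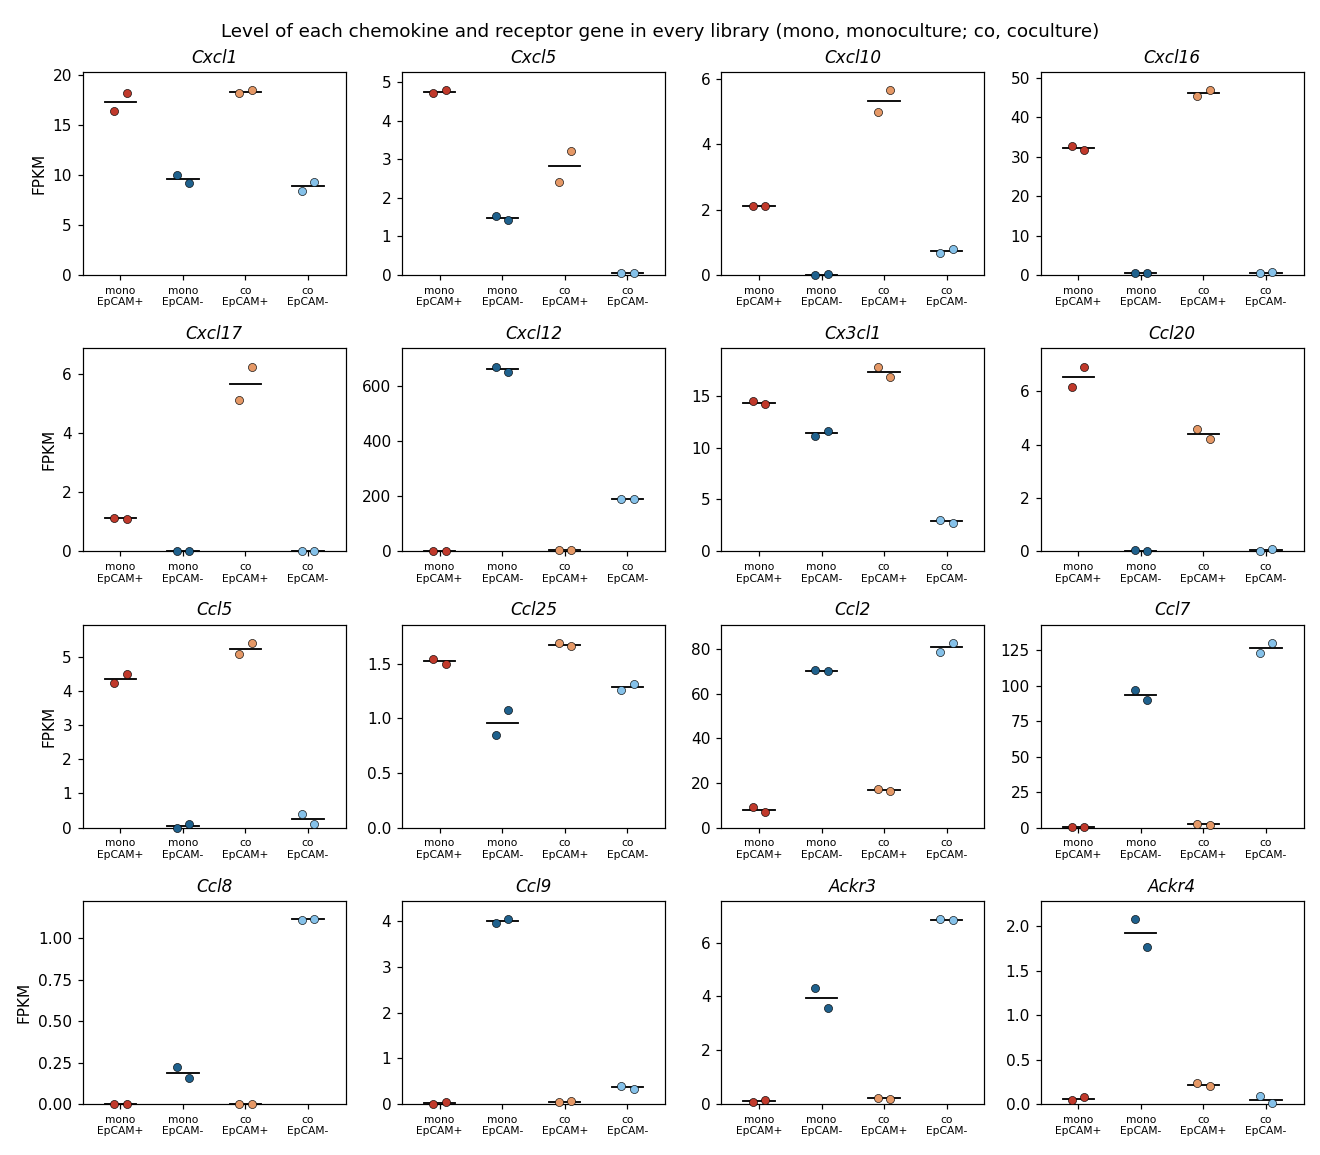
Level in FPKM (vertical axes, from 0, each on its own scale) of the 16 genes that reached a mean of 1 FPKM, in monoculture EpCAM+, monoculture EpCAM-, coculture EpCAM+ and coculture EpCAM- libraries; points are libraries and lines are means of 2. Cxcl12, Ccl2 and Ccl7 stand highest in the EpCAM- groups, and Cxcl16, Ccl20, Ccl5, Cxcl10 and Cxcl17 in the EpCAM+ groups.

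Summed over all 39 ligands, EpCAM- cells carried most ligand RNA. The sum was 95.5 and 95.2 FPKM in monoculture EpCAM+ libraries, against 868 and 841 FPKM in monoculture EpCAM- libraries. The coculture values were 130 and 133 FPKM in EpCAM+ libraries, against 406 and 421 FPKM in EpCAM- libraries. A single gene, Cxcl12, made up 77.5% of the monoculture EpCAM- sum and 45.9% of the coculture EpCAM- sum. In EpCAM+ cells the largest part was Cxcl16, with 33.8% in monoculture and 35.1% in coculture. Without Cxcl12 the sums still differed between fractions, at 93.3 ± 0.0467 FPKM in monoculture EpCAM+ against 192 ± 5.40 in monoculture EpCAM-, and 127 ± 1.57 in coculture EpCAM+ against 224 ± 8.51 in coculture EpCAM- (mean ± SD, n = 2 libraries). Most of the rest in EpCAM- cells was Ccl7 and Ccl2, with means of 93.4 and 70.3 FPKM in monoculture and 126 and 80.7 in coculture. The EpCAM- excess was thus carried by few genes. Sums of the ELR CXC, CXCR3, CX3C and other CC ligand classes were higher in EpCAM+ cells in both cultures. In bulk RNA, fewer cells of a type and less RNA per cell cannot be told apart.

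**Figure D2:**
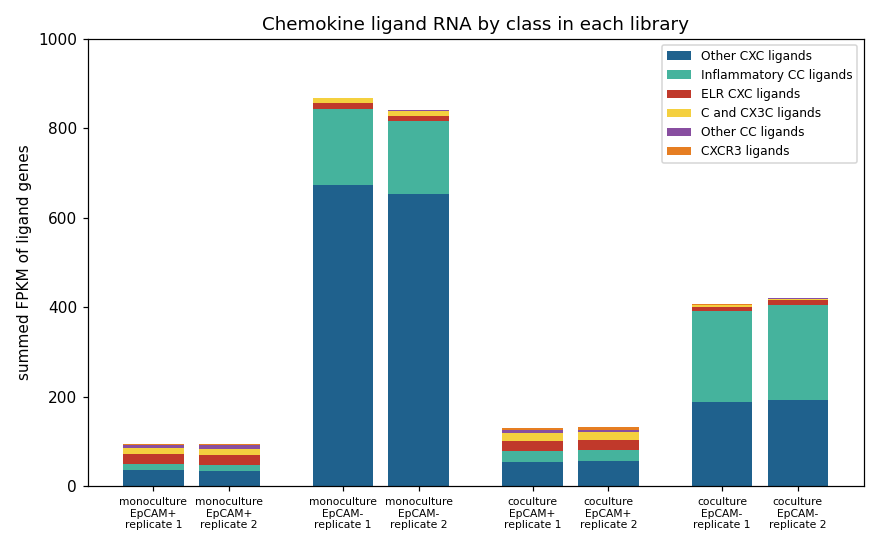
Summed FPKM of ligand genes (vertical axis, from 0) in each of the 8 libraries, stacked by class of ligand. Other CXC ligands, nearly all Cxcl12, and inflammatory CC ligands fill the EpCAM- bars, which reach 868 and 841 FPKM in monoculture and 406 and 421 FPKM in coculture.

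Of the neutrophil-attracting ELR ligands, Cxcl1 was made by both fractions, with more in EpCAM+. Cxcl1 (chromosome 5, 90891241 to 90893115; positions here and below are on GRCm38, the mm10 build), a main ligand of Cxcr2, stood at 16.3 and 18.1 FPKM in monoculture EpCAM+ libraries, against 10.0 and 9.14 in monoculture EpCAM- libraries. Coculture cells had 18.2 and 18.5 FPKM in EpCAM+, against 8.42 and 9.30 in EpCAM-. The fractions did not overlap in either culture, and the log2 fold changes of FPKM + 1 were 0.78 in monoculture (SE 0.066, adjusted p = 7.16e-06, limma) and 0.97 in coculture (SE 0.066, adjusted p = 1.96e-06), both under 2-fold. The coculture value lay at the 2-fold limit, and its means differed 2.07-fold. It was 1.01 with a pseudocount of 0.5 and 1.04 with 0.1, both called. Under the median of ratios it was 0.70 and under quantile normalization 0.69. Without coculture EpCAM- replicate 2 it was 1.04. The change between cultures passed the test in neither fraction, at -0.08 in EpCAM+ (adjusted p = 0.317) and 0.10 in EpCAM- (adjusted p = 0.211).

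Cxcl5 (chromosome 5, 90759360 to 90761624), another ELR ligand, was lower in level. It stood at 4.72 and 4.79 FPKM in monoculture EpCAM+ libraries, against 1.52 and 1.44 in monoculture EpCAM- libraries. Coculture libraries read 2.42 and 3.22 FPKM in EpCAM+ and 0.0480 and 0.0587 in EpCAM-, so EpCAM- cells were nearly without it there and not in monoculture. Cxcl5 was higher in EpCAM+ by 1.22 in monoculture (SE 0.090, adjusted p = 3.28e-06) and 1.85 in coculture (adjusted p = 2.53e-07). Monoculture against coculture it rose by 1.23 in EpCAM- (adjusted p = 1.15e-05) and was higher by 0.60 in EpCAM+, under 2-fold (adjusted p = 0.00108). The other ELR ligands among the members stayed low. Cxcl2 was highest at 0.845 FPKM in coculture EpCAM+ replicate 2, Cxcl15 at 0.185 and Cxcl3 at 0.106 in the same library. Ppbp, an ELR ligand whose name falls outside the rule, read 1.25 and 0.932 FPKM in monoculture EpCAM+ libraries. It was 0 and 0.0610 in monoculture EpCAM-, 0.0746 and 0.171 in coculture EpCAM+, and 0.0983 and 0.185 in coculture EpCAM-. Ppbp did not pass the filter and was not tested.

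Of the CXCR3 ligands, Cxcl10 (chromosome 5, 92346638 to 92348889) alone reached 1 FPKM. It stood at 2.11 FPKM in both monoculture EpCAM+ libraries, against 0 and 0.0239 in monoculture EpCAM- libraries. In coculture it was 4.98 and 5.65 FPKM in EpCAM+, against 0.680 and 0.802 in EpCAM-. Both fractions were thus lower in monoculture than in coculture, with no overlap. The fraction difference was 1.62 in monoculture (adjusted p = 6.97e-08) and 1.86 in coculture (adjusted p = 3.41e-08). Monoculture against coculture, it fell by 1.02 in EpCAM+ (SE 0.066, adjusted p = 1.34e-05), and the value in EpCAM- was -0.78 (adjusted p = 2.44e-05), under 2-fold on the scale of FPKM + 1. The EpCAM- value was -1.28 with a pseudocount of 0.5 and -2.91 with 0.1, both past 2-fold. EpCAM- cells held 0.566% of the EpCAM+ mean in monoculture, within the range of the epithelial markers (0.0906% to 0.633%), and 13.9% in coculture. The EpCAM+ value sat at the edge of the 2-fold limit: it was -0.94 without coculture EpCAM+ replicate 2, -0.95 under the median of ratios and -0.86 under quantile normalization. Cxcl11 reached 0.497 and 0.395 FPKM and Cxcl9 0.0548 and 0.0600 FPKM in coculture EpCAM+, and both were lower in the monoculture EpCAM+ libraries. An exon of Cxcl10 overlaps one of Art3 on the other strand, and Art3 stood at 0 FPKM in monoculture EpCAM+, 1.59 in monoculture EpCAM-, 0.0799 in coculture EpCAM+ and 4.78 in coculture EpCAM-. Between the fractions Art3 thus went the other way from Cxcl10, and within EpCAM- cells it was lower in monoculture, as Cxcl10 was. Its part in the EpCAM- values was not tested; whether counting used strand is not given in the sources used here.

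Promoter sequences of 250 bases before and 50 after the start site, from RefSeq (GRCm38.p6), were matched for 10 of the 16 genes. They are shown for 3 ligands that were higher in EpCAM+ cells and for Cxcl12, the leading ligand of EpCAM- cells, so that their letters can be set beside the levels. Capitals mark matches on either strand to the motifs searched in all 32851 promoters of the table: the NF-kB-like motif (in 5.56% of promoters), the interferon-response-like motif (3.44%), the AP-1-like motif TGANTCA (7.81%) and the TATA box motif TATAAA (13.6%). Sequences run 5′ to 3′ on the gene's strand.
Cxcl1, chr5:90890995-90891294, plus strand: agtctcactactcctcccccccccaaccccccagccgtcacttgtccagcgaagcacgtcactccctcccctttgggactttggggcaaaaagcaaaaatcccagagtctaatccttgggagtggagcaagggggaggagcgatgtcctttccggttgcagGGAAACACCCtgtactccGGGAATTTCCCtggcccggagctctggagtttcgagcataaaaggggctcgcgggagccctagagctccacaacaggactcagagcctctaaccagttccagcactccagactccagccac
Cxcl10, chr5:92348840-92349139, minus strand: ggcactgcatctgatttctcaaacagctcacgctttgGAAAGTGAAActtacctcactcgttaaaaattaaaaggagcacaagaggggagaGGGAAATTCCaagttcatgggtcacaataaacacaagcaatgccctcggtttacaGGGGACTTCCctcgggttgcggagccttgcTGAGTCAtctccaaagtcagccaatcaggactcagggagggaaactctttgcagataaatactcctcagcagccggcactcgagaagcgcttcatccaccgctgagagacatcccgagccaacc
Ccl20, chr1:83116516-83116815, plus strand: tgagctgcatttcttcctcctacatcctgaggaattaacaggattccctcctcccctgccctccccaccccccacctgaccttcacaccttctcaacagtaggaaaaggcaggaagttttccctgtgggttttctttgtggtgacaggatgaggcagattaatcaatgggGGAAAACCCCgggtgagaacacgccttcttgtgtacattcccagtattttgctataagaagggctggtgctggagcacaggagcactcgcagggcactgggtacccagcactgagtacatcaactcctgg
Cxcl12, chr6:117168285-117168584, plus strand: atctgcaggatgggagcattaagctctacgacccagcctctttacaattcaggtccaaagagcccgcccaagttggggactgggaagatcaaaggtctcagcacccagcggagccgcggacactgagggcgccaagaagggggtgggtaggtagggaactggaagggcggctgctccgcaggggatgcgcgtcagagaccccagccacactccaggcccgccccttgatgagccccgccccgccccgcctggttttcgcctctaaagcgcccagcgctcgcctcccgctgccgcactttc
Cxcl1 has 3 NF-kB-like matches, of which those starting 71 and 70 bases before the start site overlap on opposite strands. Cxcl10 has 2 NF-kB-like matches, 1 interferon-response-like match and 1 AP-1-like match, and Ccl20 has 1 NF-kB-like match. None of the 4 motifs was in the Cxcl12 window. The other promoters were mixed, and the 10 genes are too few to say whether matches sort by fraction. Ccl9, of EpCAM- cells, has 1 NF-kB-like and 1 AP-1-like match. Neither Cx3cl1 nor Ccl25, higher in EpCAM+ cells, has an NF-kB-like match. Ccl8, Ackr3 and Ackr4, higher in EpCAM- cells in monoculture, have none either. A match is a description of the letters, not of binding.

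Cxcl16 (chromosome 11, 70453983 to 70459984), a ligand made as a membrane protein and read by Cxcr6, was the strongest chemokine of EpCAM+ cells. It stood at 32.7 and 31.8 FPKM in monoculture EpCAM+ libraries, against 0.371 and 0.407 in monoculture EpCAM- libraries. Coculture libraries read 45.5 and 46.9 FPKM in EpCAM+, against 0.468 and 0.746 in EpCAM-. The fold changes were 4.58 in monoculture (SE 0.076, adjusted p = 3.34e-10) and 4.88 in coculture (adjusted p = 2.59e-10). EpCAM- cells held 1.21% of the EpCAM+ mean in monoculture and 1.31% in coculture, above the highest epithelial marker share of each (0.633% and 0.437%). The monoculture level in EpCAM+ was lower by 0.51, under 2-fold (adjusted p = 0.00107). Zmynd15, whose exon overlaps Cxcl16 on the other strand, was below 1 FPKM in every library.

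Cxcl17 (chromosome 7, 25400053 to 25412886), a mucosal CXC-type peptide, was found in EpCAM+ cells. Its level was 1.14 and 1.11 FPKM in monoculture EpCAM+ libraries, against 0.00554 and 0 in monoculture EpCAM- libraries, and 5.10 and 6.23 FPKM in coculture EpCAM+ libraries, against 0 in both coculture EpCAM- libraries. The fractions differed by 1.08 in monoculture (adjusted p = 2.79e-06) and 2.73 in coculture (adjusted p = 9.14e-09). Cxcl17 fell by 1.65 in monoculture EpCAM+ cells (SE 0.078, adjusted p = 2.78e-06), and the means differed 5.05-fold. On the scale of log2(FPKM + 1) no other member changed as much between cultures in EpCAM+ cells, while by the ratio of means Ccl7 differed more (14.0-fold). The EpCAM- mean in monoculture was 0.247% of the EpCAM+ mean, within the range of the epithelial markers.

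Cx3cl1 (chromosome 8, 94772009 to 94782427), the membrane-anchored fractalkine, changed its pattern between cultures. It stood at 14.5 and 14.2 FPKM in monoculture EpCAM+ libraries, against 11.1 and 11.6 in monoculture EpCAM- libraries. The coculture values were 17.8 and 16.8 FPKM in EpCAM+, against 3.05 and 2.71 in EpCAM-. EpCAM- cells thus carried 79.4% of the EpCAM+ mean in monoculture and 16.6% in coculture. The fraction difference was 0.31 in monoculture (adjusted p = 6.91e-04) and 2.24 in coculture (SE 0.053, adjusted p = 2.97e-09). In EpCAM- cells it rose by 1.67 in monoculture (adjusted p = 1.28e-07), and in EpCAM+ the change was -0.26 (adjusted p = 0.00524).

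Among CC ligands, Ccl20 and Ccl5 belonged to EpCAM+ cells. Ccl20 (chromosome 1, 83116766 to 83119167), the ligand of Ccr6, stood at 6.16 and 6.93 FPKM in monoculture EpCAM+ libraries, against 0.0299 and 0 in monoculture EpCAM- libraries. In coculture it was 4.59 and 4.22 FPKM in EpCAM+, against 0 and 0.0699 in EpCAM-. The fraction differences were 2.89 in monoculture (adjusted p = 2.81e-09) and 2.38 in coculture (adjusted p = 9.87e-09). EpCAM- cells held 0.229% of the EpCAM+ mean in monoculture, within the range of the epithelial markers, and 0.793% in coculture, above it (0.0599% to 0.437%). The coculture share rested on the 0.0699 FPKM of replicate 2 alone, so its place against that range is uncertain. With Cxcl5 it was 1 of 2 members that passed the test as higher in monoculture EpCAM+ cells, by 0.48 and under 2-fold (adjusted p = 8.73e-04).

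Ccl5 (chromosome 11, 83525778 to 83530518), which draws T cells and monocytes, stood at 4.22 and 4.49 FPKM in monoculture EpCAM+ libraries, against 0 and 0.0938 in monoculture EpCAM- libraries. The level in coculture was 5.07 and 5.40 FPKM in EpCAM+, against 0.405 and 0.112 in EpCAM-. The fraction differences were 2.36 in monoculture (adjusted p = 1.42e-07) and 2.32 in coculture (adjusted p = 1.78e-07). The culture change passed the test in neither fraction, at -0.22 in EpCAM+ (adjusted p = 0.124) and -0.26 in EpCAM- (adjusted p = 0.0680). With a pseudocount of 0.1 the EpCAM- value was -1.23 and was called (adjusted p = 0.0357), and its means differed 5.52-fold.

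Ccl25, a ligand of Ccr9, was low and even. Group means were 1.52 ± 0.0311 FPKM in monoculture EpCAM+, 0.962 ± 0.159 in monoculture EpCAM-, 1.68 ± 0.0206 in coculture EpCAM+ and 1.29 ± 0.0383 in coculture EpCAM- (SD, n = 2). The fraction differences of 0.36 in monoculture (adjusted p = 6.93e-04) and 0.23 in coculture (adjusted p = 0.00945) stood beside medians of all genes of 0.23 in monoculture and 0.26 in coculture. Its exons overlap those of Elavl1 on the other strand, which stood at 30.6 FPKM in monoculture EpCAM+, 15.2 in monoculture EpCAM-, 25.9 in coculture EpCAM+ and 19.3 in coculture EpCAM-, so the Ccl25 value is uncertain. Under quantile normalization the coculture difference was -0.0878.

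**Figure D3:**
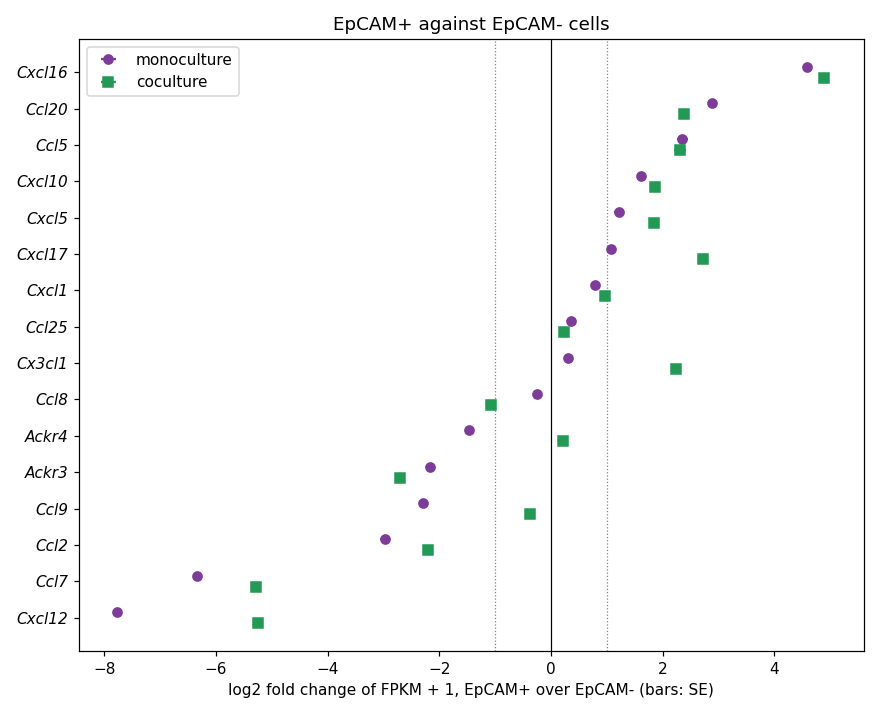
Log2 fold change of FPKM + 1 of EpCAM+ over EpCAM- cells (horizontal axis, bars are SE, mostly within the symbols) for the 16 genes in monoculture (circles) and coculture (squares); dotted lines mark 2-fold. Cxcl16 lies furthest to the right at 4.58 and 4.88, and Cxcl12 and Ccl7 furthest to the left.

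Cxcl12 (chromosome 6, 117168535 to 117181367), the ligand of Cxcr4 that holds stem and immune cells in stromal niches, was the most abundant member. It stood at 2.12 and 1.93 FPKM in monoculture EpCAM+ libraries, against 672 and 652 in monoculture EpCAM- libraries. Coculture libraries read 4.08 and 4.03 FPKM in EpCAM+, against 189 and 191 in EpCAM-. The fractions differed by -7.78 in monoculture (SE 0.034, adjusted p = 6.93e-13) and -5.24 in coculture (SE 0.034, adjusted p = 4.81e-12). In EpCAM- cells Cxcl12 rose by 1.80 in monoculture (SE 0.034, adjusted p = 1.10e-08), and the means differed 3.49-fold. In EpCAM+ cells the value was -0.74 (adjusted p = 2.35e-06), and its direction depended on the share of the other fraction. EpCAM+ libraries held 0.306% of the EpCAM- mean in monoculture and 2.14% in coculture, beside mesenchymal marker ranges that ended at 0.472% and 1.97%. With the median share subtracted, Cxcl12 was 1.32 and 1.02 FPKM in monoculture EpCAM+ libraries and 0.811 and 0.808 in coculture EpCAM+ libraries, a change of 0.26 (adjusted p = 0.00802). That p-value takes each library's share as known. The marker shares ran from 0.0814% to 0.472% in monoculture and from 1.51% to 1.97% in coculture. The direction of the Cxcl12 change in EpCAM+ cells is therefore not settled.

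The monocyte-attracting ligands Ccl2 and Ccl7 are neighbours on chromosome 11, with 8.26 kb between them, and both were high in EpCAM- cells. Ccl2 (82035571 to 82037453), the main ligand of Ccr2, was also present in EpCAM+ cells. It stood at 9.07 and 7.19 FPKM in monoculture EpCAM+ libraries, against 70.7 and 70.0 in monoculture EpCAM- libraries. In coculture it was 17.2 and 16.2 FPKM in EpCAM+, against 78.7 and 82.7 in EpCAM-. EpCAM+ cells held 11.6% of the EpCAM- mean in monoculture and 20.7% in coculture, far above the mesenchymal marker ranges. The fraction differences were -2.97 (adjusted p = 7.81e-09) and -2.21 (adjusted p = 5.53e-08). In EpCAM+ the monoculture value was -0.96 (SE 0.084, adjusted p = 6.63e-05), just under 2-fold, and the means differed 2.06-fold. It was -1.11 without monoculture EpCAM+ replicate 1 and -1.002 without coculture EpCAM+ replicate 2. With a pseudocount of 0.5 it was -1.0045 and with 0.1 it was -1.04, both called. After subtraction of the mesenchymal share it was -0.86. The change in EpCAM- was -0.20 and did not pass the test (adjusted p = 0.0771).

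Ccl7 (82045712 to 82047525), which also binds Ccr2, stood at 0.141 and 0.184 FPKM in monoculture EpCAM+ libraries, against 97.1 and 89.7 in monoculture EpCAM- libraries. Coculture cells had 2.47 and 2.07 FPKM in EpCAM+, against 123 and 130 in EpCAM-. Unlike Ccl2, its EpCAM+ level followed the mesenchymal markers: 0.174% of the EpCAM- mean in monoculture and 1.80% in coculture. The fractions differed by -6.34 in monoculture (adjusted p = 3.23e-11) and -5.29 in coculture (adjusted p = 8.71e-11). In EpCAM+ cells it fell by 1.49 in monoculture as deposited (adjusted p = 1.97e-06). With the share subtracted, coculture EpCAM+ libraries held 0.296 and 0 FPKM and the change was -0.13 (adjusted p = 0.372). In EpCAM- cells the monoculture change was -0.43, under 2-fold (adjusted p = 7.18e-04).

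**Figure D4:**
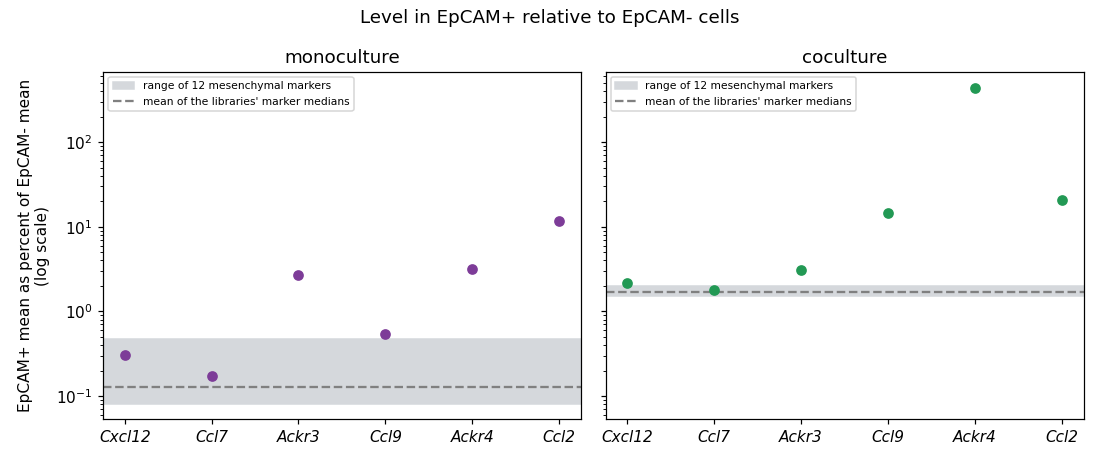
Mean level in EpCAM+ as a percent of the mean level in EpCAM- cells (vertical axis, log scale) for 6 members, in monoculture and coculture; the band is the range of 12 mesenchymal markers over the 2 EpCAM+ libraries and the dashed line the mean of their medians. Ccl7 lies inside the band in both cultures, Cxcl12 inside it in monoculture and just above it in coculture, and Ccl2 far above it at 11.6% and 20.7%.

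The other inflammatory CC ligands of EpCAM- cells differed between cultures in opposite directions. Ccl9 (chromosome 11, 83572919 to 83578636), a ligand of Ccr1, stood at 0 and 0.0436 FPKM in monoculture EpCAM+ libraries, against 3.96 and 4.04 in monoculture EpCAM- libraries. The level in coculture was 0.0458 and 0.0584 FPKM in EpCAM+, against 0.399 and 0.326 in EpCAM-. The fractions differed by -2.29 in monoculture (adjusted p = 2.29e-09) and -0.37 in coculture (adjusted p = 2.25e-04). The coculture value depended on the pseudocount: it was -1.60 and called with 0.1, and the means differed 6.95-fold. EpCAM+ cells held 0.545% of the EpCAM- mean in monoculture, just above the mesenchymal marker range, and 14.4% in coculture. In EpCAM- cells Ccl9 rose by 1.88 in monoculture (SE 0.053, adjusted p = 7.28e-08), an 11.03-fold difference of means. Lyz2, a myeloid marker, moved with Ccl9 in EpCAM- cells, at 3.10 and 3.02 FPKM in monoculture against 0.156 and 0.427 in coculture. Over the list of 19 leukocyte markers, the sum was 3.50 to 3.52 FPKM in monoculture EpCAM- libraries and 0.458 to 0.746 in coculture EpCAM- libraries. Lyz2 was the largest part of it, with means of 3.06 FPKM in monoculture and 0.291 in coculture. The difference of the sums thus largely repeats that of Lyz2. The rest of the list was mixed. Csf1r was 0.2002 and 0.171 FPKM in monoculture against 0.135 and 0.0745 in coculture, and Coro1a was 0.158 and 0.222 against 0.0328 and 0.126. Laptm5 and Cd79a went the other way. Laptm5 was 0 in both monoculture libraries against 0.0328 and 0.0372 in coculture, and Cd79a was 0.0411 and 0.0199 against 0.0913 and 0.0494. In monoculture EpCAM- 13 of the 19 were at 0 in both libraries and in coculture EpCAM- 11, Ptprc, Adgre1 and Tyrobp among them in each. The part of such cells in the Ccl9 result was not tested. Ccl8 (chromosome 11, 82115185 to 82116799), which also attracts monocytes, was at 0 in all 4 EpCAM+ libraries. It read 0.221 and 0.155 FPKM in monoculture EpCAM- libraries, against 1.11 and 1.11 in coculture EpCAM- libraries, a log2 change of -0.83 (adjusted p = 4.31e-06). The change was past 2-fold with smaller pseudocounts, at -1.23 with 0.5 and -2.09 with 0.1, and the means differed 5.93-fold. Its fraction difference was -0.25 in monoculture (adjusted p = 0.00189) and -1.08 in coculture (adjusted p = 2.02e-07). With a pseudocount of 0.1 the monoculture difference was -1.52 and was called (adjusted p = 4.58e-05).

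Receptors were nearly absent. None of the 18 signalling receptors reached a mean of 1 FPKM in any group. Their highest libraries were Cxcr6 at 0.382 FPKM in coculture EpCAM-, Cxcr4 at 0.306 and Ccr2 at 0.275 in coculture EpCAM+, Cxcr5 at 0.244 in coculture EpCAM+ and Ccr10 at 0.212 in coculture EpCAM+. Ccr2, the receptor of Ccl2 and Ccl7, was 0.141 and 0.0939 FPKM in monoculture EpCAM+ libraries and 0.225 and 0.275 in coculture EpCAM+ libraries, and 0.00828 was its highest value in the EpCAM- libraries. Cxcr2, the receptor of Cxcl1 and Cxcl5, was at 0 in all 8 libraries. None of these 18 passed the filter, so differences between groups were not tested.

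The 2 receptors that reached 1 FPKM were atypical ones. Ackr3 was higher in EpCAM- cells in both cultures, and Ackr4 in monoculture. Ackr3 (chromosome 1, 90203980 to 90216751), which removes Cxcl12, stood at 0.0730 and 0.139 FPKM in monoculture EpCAM+ libraries, against 4.33 and 3.57 in monoculture EpCAM- libraries. In coculture it was 0.225 and 0.196 FPKM in EpCAM+, against 6.86 and 6.83 in EpCAM-. The differences were -2.16 (adjusted p = 2.99e-08) and -2.70 (adjusted p = 8.41e-09). In EpCAM- cells the monoculture change of Ackr3 was -0.67, under 2-fold (adjusted p = 1.35e-04), while its ligand Cxcl12 was higher there. EpCAM+ cells held 2.69% of the EpCAM- mean in monoculture and 3.07% in coculture, above the mesenchymal marker ranges. Their change between cultures was -0.13 (adjusted p = 0.189) and became 0.0096 after subtraction of the mesenchymal share.

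Ackr4 (chromosome 9, 104084157 to 104126933), which takes up Ccl19, Ccl21 and Ccl25, stood at 0.0431 and 0.0800 FPKM in monoculture EpCAM+ libraries, against 2.08 and 1.77 in monoculture EpCAM- libraries. The coculture values were 0.236 and 0.2003 FPKM in EpCAM+, against 0.0869 and 0.0124 in EpCAM-. The fractions differed by -1.46 in monoculture (adjusted p = 1.69e-07), and in coculture the value was 0.22 (adjusted p = 0.0172). The coculture value, between levels all under 1 FPKM, thus went the other way. It was 1.13 and called with a pseudocount of 0.1 (adjusted p = 0.00353), and the means differed 4.39-fold. Under quantile normalization it was 0.14 and did not pass the test (adjusted p = 0.0928). Without coculture EpCAM- replicate 2 it was 0.16. Ackr4 rose by 1.48 in monoculture EpCAM- cells (SE 0.068, adjusted p = 9.29e-07). Its exons overlap those of Acad11 on the other strand, which stood at 2.99 ± 0.103 FPKM in monoculture EpCAM+, 3.76 ± 0.125 in monoculture EpCAM-, 4.42 ± 0.133 in coculture EpCAM+ and 2.32 ± 0.1003 in coculture EpCAM- (SD, n = 2). Acad11 was thus the lowest in coculture EpCAM-, as Ackr4 was, and reads of the pair cannot be told apart if counting ignored strand.

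Counted by comparison at an adjusted p under 0.05 and at least 2-fold, 12 of the 16 tested members differed between EpCAM+ and EpCAM- cells in each culture. In monoculture 6 were higher and 6 lower in EpCAM+, where 28.1% of all 12012 tested genes were called (15.5% higher, 12.6% lower). In coculture 7 were higher and 5 lower, where 26.5% of all genes were called (16.5% higher, 10.1% lower). At an adjusted p under 0.05 alone all 16 passed in each culture, beside 87.9% of all genes in monoculture and 87.2% in coculture. The medians of the 16 log2 fold changes were 0.34 in monoculture and 0.60 in coculture, beside 0.23 and 0.26 over all tested genes. The median of ratios moved that median of all genes by -0.21 in monoculture and -0.26 in coculture and left the member counts as they were, and over all genes the share of calls that were higher became 44.3% instead of 55.2% in monoculture and 49.8% instead of 62.0% in coculture.

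Monoculture against coculture, EpCAM+ cells had 3 members called and all were lower, Cxcl17, Ccl7 and Cxcl10, where 1.94% of all genes were called (0.266% higher, 1.67% lower). Of these, the Ccl7 call was lost after subtraction of the mesenchymal share, and Cxcl10 lay at the 2-fold limit. EpCAM- cells had 5 called and all were higher, Ccl9, Cxcl12, Cx3cl1, Ackr4 and Cxcl5, where 4.52% of all genes were called (2.56% higher, 1.96% lower). The single direction in EpCAM- cells held at a pseudocount of 1 and not at smaller ones: Cxcl10 and Ccl8 were called lower at 0.5 (5 higher, 2 lower), and Ccl5 as well at 0.1 (5 higher, 3 lower), where all genes had 488 higher and 422 lower. Without a minimum change 10 passed in EpCAM+ (2 higher, 8 lower) and 11 in EpCAM- (5 higher, 6 lower), beside 51.4% and 62.7% of all genes. The medians of the members were -0.21 in EpCAM+ and -0.11 in EpCAM-, beside -0.06 and 0.0016 over all genes. These comparisons share groups with those between the fractions, so they are not separate evidence.

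**Figure D5:**
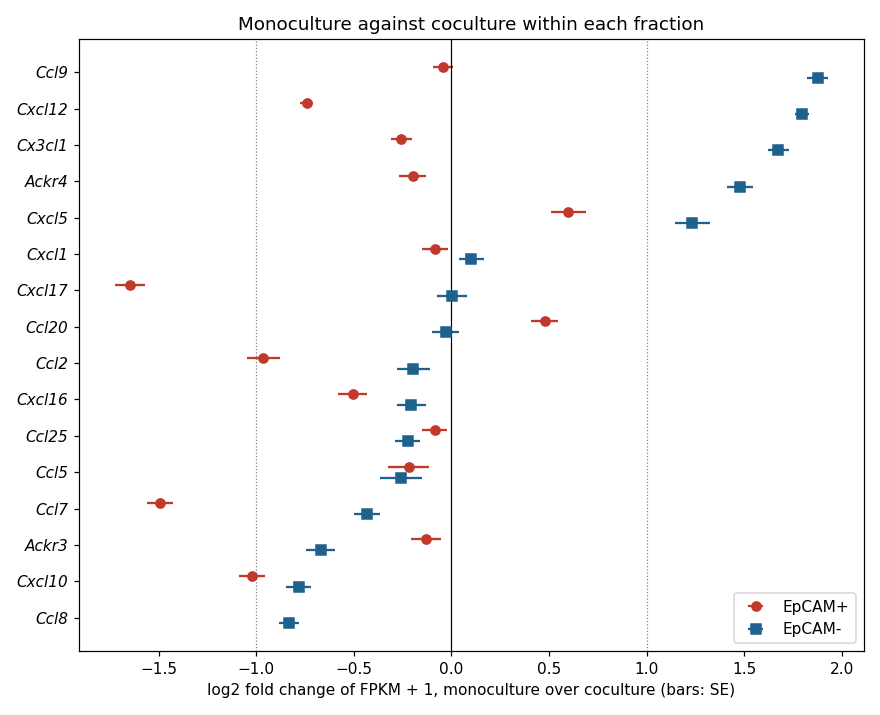
Log2 fold change of FPKM + 1 of monoculture over coculture (horizontal axis, bars are SE) for the 16 genes in EpCAM+ (circles) and EpCAM- (squares) cells; dotted lines mark 2-fold, and Ccl8, at 0 in all EpCAM+ libraries, has no EpCAM+ point. In EpCAM- cells 5 genes lie beyond 1 on the right, and in EpCAM+ cells Cxcl17, Ccl7 and Cxcl10 lie beyond -1 on the left.

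The culture change itself differed between the fractions, as the change in EpCAM+ minus that in EpCAM-, for 6 of the 16 members, all negative, where 8.09% of all genes were called (2.43% positive, 5.66% negative). These were Cxcl12 (-2.54, SE 0.048, adjusted p = 1.93e-08), Cx3cl1 (-1.93, adjusted p = 5.70e-07), Ccl9 (-1.92, adjusted p = 5.70e-07), Ackr4 (-1.68, adjusted p = 3.72e-06), Cxcl17 (-1.65, adjusted p = 8.46e-06) and Ccl7 (-1.06, adjusted p = 3.75e-05). Smaller pseudocounts added calls, some of them positive. With 0.5, 1 call was positive and 7 negative, adding Ccl8 (1.23) and Cxcl5 (-1.16). With 0.1, 2 were positive and 7 negative, with Ccl8 at 2.09, Cxcl10 at 1.62 and Cxcl5 at -2.62, where all genes had 462 positive and 1151 negative calls. Without a minimum change 12 passed, beside 65.2% of all genes. For Cxcl12, Cx3cl1, Ccl9 and Ackr4 the EpCAM- cells rose, and for Cxcl17 and Ccl7 the EpCAM+ cells fell. After subtraction of the mesenchymal share the Cxcl12 value was -1.54 (adjusted p = 3.52e-06) and the Ccl7 value 0.31 (adjusted p = 0.119), so the Ccl7 difference was not kept. Without coculture EpCAM+ replicate 1 the Ccl7 value was -0.97. Under the median of ratios it was -0.97 and under quantile normalization -0.83, so the call was lost under both scalings.

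Neighbouring members shared a fraction in some clusters and not in others. On chromosome 11, Ccl2, Ccl7 and Ccl8 lie within 81.2 kb together with Ccl11 and Ccl12. The first 3 were higher in EpCAM- cells, while Ccl12 was at 0 and Ccl11 read 0.0247 FPKM in a single library. In the same chromosome's other group, Ccl5, of EpCAM+ cells, and Ccl9, of EpCAM- cells, are 42.4 kb apart. The ELR cluster on chromosome 5 (Cxcl5 to Cxcl2, 147 kb) was higher in EpCAM+ at both tested genes. On chromosome 8, Cx3cl1 lies between Ccl22, at 0 in all libraries, and Ccl17, whose highest value was 0.705 FPKM in monoculture EpCAM-.

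Of 37 further genes of chemokine signalling and handling (other chemokine-like proteins, G protein subunits, arrestins, receptor kinases and downstream factors), 35 were in the files and 25 were tested. Between EpCAM+ and EpCAM- cells, 4 were higher and 4 lower in monoculture, and 6 higher and 3 lower in coculture, or 32.0% and 36.0% beside the 28.1% and 26.5% of all genes. Ptk2b, a kinase downstream of chemokine receptors, was 32.7 ± 0.856 FPKM in monoculture EpCAM+ against 0.643 ± 0.120 in monoculture EpCAM-, and 32.3 ± 0.219 in coculture EpCAM+ against 1.34 ± 0.111 in coculture EpCAM- (SD, n = 2; differences 4.36 and 3.83). Cmtm8, of a family related to chemokines, was 9.64 ± 0.962 FPKM in monoculture EpCAM+ and 12.8 ± 0.0574 in coculture EpCAM+, and was listed at 0 in all EpCAM- libraries. Gnai1, an inhibitory G protein subunit, was higher in EpCAM+ by 3.30 in monoculture and 2.28 in coculture, with EpCAM+ means of 9.46 and 4.52 FPKM. Gnai2, another such subunit, stood far higher, at 244 FPKM in monoculture EpCAM+ against 348 in monoculture EpCAM- (difference -0.51). Its coculture means were 244 FPKM in EpCAM+ and 250 in EpCAM- (difference -0.03). For Gnai3, a further one, the differences were 0.24 in monoculture and 0.28 in coculture.

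Lower in EpCAM+ were the receptor kinase Grk5 (-1.65 in monoculture and -1.04 in coculture) and the phosphoinositide kinase subunit Pik3r5 (-1.12 and -1.44). The G protein-coupled receptor Gpr35 was lower in monoculture at -1.06. Rgs16, which shuts off G protein signalling, was 21.3 ± 0.177 FPKM in monoculture EpCAM+ against 31.8 ± 0.0580 in monoculture EpCAM-, and 9.29 ± 0.380 in coculture EpCAM+ against 67.8 ± 2.05 in coculture EpCAM-. It was the 1 gene of this list called between the cultures, or 4% of those tested in each fraction. Over all genes 1.94% were called in EpCAM+ and 4.52% in EpCAM-. Rgs16 was higher in monoculture EpCAM+ by 1.11 (adjusted p = 3.33e-07) and lower in monoculture EpCAM- at -1.07 (adjusted p = 1.36e-07). The difference between these changes was 2.18 (adjusted p = 4.76e-08), and Gnai1 was called as well at 1.02 (adjusted p = 1.88e-05). These 2 were 8% of the list as tested, beside 8.09% of all genes.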

How the data were processed

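RNA of 8 libraries of MCa-P1362 was sequenced as 150 bp read pairs, per the labels' protocols. Per the submitters' processing notes, reads went through FastQC, cutadapt, HISAT2 and SAMtools, with HTSeq and edgeR also named, on build mm10; no version is given. The authors deposited FPKM per gene, a file per library. The sources used here do not give the tool that wrote the values, its annotation or its use of strand.

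All tests used log2(FPKM + 1). The 12012 genes that reached 1 FPKM in 2 or more libraries entered limma 3.58.1 (R 4.3.3), with a mean for each of the 4 groups, 4 residual degrees of freedom and eBayes with trend. P-values were two-sided, with Benjamini-Hochberg adjustment across those genes. Calls needed an adjusted p under 0.05 together with a 2-fold change. With 2 against 2 libraries, the smallest exact p is 0.333. The fit was checked on simulated data. Members and lists were chosen with earlier results of these data known. Members are named with values where a group mean reached 1 FPKM, and genes of the signalling list where they were called and among the 3 highest or 3 lowest changes of a comparison. Low members, neighbours, Ppbp, Gnai2 and Gnai3 were named after their values were seen. Same-numbered libraries did not deviate together (r between -0.0726 and 0.0406 for pairs of groups). The alternatives tried were: pseudocounts of 0.1 and 0.5; a filter of 5 FPKM or none; 3 scalings; eBayes without trend; a replicate block; the 4 compared libraries alone; each library left out; other minimum changes; and subtraction of the other fraction's share, as the median ratio over 12 markers. Positions come from GENCODE M21 (GRCm38). Software was Python 3.11.15 with pandas 2.3.3, NumPy 2.4.6 and matplotlib 3.10.9.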

Additional observations from a re-analysis of the deposited data

Results flagged for a closer look

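For 6 members the change between cultures, monoculture against coculture, differed between EpCAM+ and EpCAM- cells by the test of the difference itself (limma, change in EpCAM+ minus change in EpCAM-). The values were -2.54 for Cxcl12, -1.93 for Cx3cl1, -1.92 for Ccl9, -1.68 for Ackr4, -1.65 for Cxcl17 and -1.06 for Ccl7. The Ccl7 value was 0.31 after subtraction of the other fraction's share, -0.97 under the median of ratios and -0.83 under quantile normalization. Groups of 2 libraries are too small for a test of single libraries that stand apart.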

How the results depend on the processing

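Over 79 changes of members and 5 counts of called members, the replicate block changed no call. With each library left out in turn, the counts were 12 in monoculture and 12 to 13 in coculture between the fractions, 3 to 4 between cultures in EpCAM+, 5 in EpCAM-, and 5 to 6 for the difference of changes. With no minimum change the counts between cultures became 10 in EpCAM+ and 11 in EpCAM-, and 12 for the difference of changes; at 4-fold they became 0, 0 and 1. In EpCAM- the count was 8 with a pseudocount of 0.1, the 3 added ones lower (Cxcl10 -2.91, Ccl8 -2.09, Ccl5 -1.23), and, by fewer genes tested, 2 with a filter of 5 FPKM.

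Direction turned for Ccl25 under quantile normalization (-0.0878 between fractions in coculture, 0.0878 between cultures in EpCAM+). It turned after subtraction of the other fraction's share for Cxcl12 (0.26) and Ackr3 (0.0096) between cultures in EpCAM+, and for Ccl7 in the difference of changes (0.31). It turned for Ccl20 between cultures in EpCAM- without coculture EpCAM- replicate 2 (range with each library left out -0.0762 to 0.0213), and for Ccl5 in the difference of changes without monoculture EpCAM- replicate 1 (-0.0262) or coculture EpCAM- replicate 1 (range -0.1305 to 0.2074). The Cxcl10 difference of changes, -0.24 on the main scale, was 1.62 with a pseudocount of 0.1 (adjusted p = 2.91e-04), 0.12 with 0.5 and 0.0225 under quantile normalization. For Cxcl12, Ccl7 and Ackr3, the subtraction lowers any gene that is high in EpCAM- cells. It cannot tell RNA of EpCAM- cells from RNA made by EpCAM+ cells. The cause was not tested for any of these turns. Values under 1 FPKM depend on the pseudocount, and with depth in reads unknown their counting error could not be estimated.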
